A study of Homo sapiens with 24 samples.

Results

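The comparison described here sets 4 control libraries of MDA-MB-468 against 4 control libraries of MDA-MB-231, 8 of the 24 RNA-seq libraries of the series. Both are established human breast cancer cell lines that the labels call ERα-negative, PR-negative, free of HER2 overexpression and of the basal subtype. The members were chosen by their labels alone: in each line, 2 libraries came from cells given 0.05% DMSO and 2 from cells given 1000 nM thalidomide, each for 3 hours, and the submitters used both as controls and call the replicates independent. The other libraries come from the same lines given BETi-211 (1000 nM) or BETd-246 (100 nM) for 3 hours, compounds directed at the BET family of chromatin readers, and from another line, MDA-MB-157, with the same treatments. Thalidomide binds cereblon, the ubiquitin ligase subunit that some degrader compounds recruit, which makes it a control for such compounds. Each line is a single cell line in culture, so the comparison describes these cultures and not breast cancers of a kind.

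Breast epithelial cells are held together by E-cadherin, claudins and desmosomes and filled with keratin filaments, and their identity is kept by transcription factors such as GRHL2, ELF3 and OVOL2 and by the splicing factors ESRP1 and ESRP2. In an epithelial-mesenchymal transition, factors of the ZEB and SNAI families bind E-box motifs at epithelial promoters and repress them, and the cells take on vimentin filaments, integrins, matrix and proteases. Triple-negative lines are known to span this axis, and to differ in which growth factor receptors and RAS pathway members they depend on.

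All values are fragments per kilobase of transcript, scaled to library size (FPKM), as deposited. A log2 difference is MDA-MB-468 minus MDA-MB-231 on the log2(FPKM + 1) scale, so a positive value is higher in MDA-MB-468, and the added 1 makes it understate the change of low genes. A gene is said to differ where limma, fitted over all 24 libraries, gave a Benjamini-Hochberg adjusted p below 0.05. Since RNA came from whole cultures, fewer cells of a type and less RNA per cell cannot be told apart.

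Depth estimated from the smallest steps between low values was 60600000 to 64400000 fragments in the MDA-MB-468 controls and 51200000 to 54600000 fragments in the MDA-MB-231 controls. Mitochondrial genes took 7.77% ± 0.47 (SD, n = 4) of the FPKM sum in MDA-MB-468 and 12.09% ± 1.74 (SD, n = 4) in MDA-MB-231, and the ranges did not overlap (two-sided exact permutation p = 0.0286, the smallest this design can give). Libraries of a line correlated at 0.9963 to 0.9983 in MDA-MB-468 and at 0.9919 to 0.9984 in MDA-MB-231, against 0.765 to 0.781 between the lines (Pearson's r across genes, which are not independent replicates). The library of MDA-MB-231 with thalidomide, replicate 1, stood apart: in 8.68% of genes it lay beyond Dixon's 95% value for 4 samples, against 0.615% to 2.46% in each of the other 7 libraries. No gene differed between thalidomide and DMSO by limma in MDA-MB-468 or in MDA-MB-231 (1980 and 766 genes at an unadjusted p below 0.05), and none in the interaction of line and control (718 unadjusted). These zeros rest on single libraries. In each line 2 libraries were set against 2, so a zero does not show that the kinds of control were alike. Without the thalidomide replicate 1 of MDA-MB-468, 71 genes differed in that line. Without the thalidomide replicate 2 of MDA-MB-231, which leaves the library that stood apart to speak for thalidomide and assumes that it varies like the other groups, 3200 genes differed in MDA-MB-231 and 1169 in the interaction.

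The lines differed in most of the transcriptome. Of 14114 genes, 12168 passed the test (86.2%), 6748 of them higher in MDA-MB-468 (47.8% of all genes) and 5420 higher in MDA-MB-231 (38.4%). With so many genes called, the counts below use genes that passed and differed at least 2-fold on the same scale: 4007 genes (28.4%), 2373 higher in MDA-MB-468 (16.8%) and 1634 higher in MDA-MB-231 (11.6%). Each list count below is to be read beside these shares, 16.8% toward MDA-MB-468 and 11.6% toward MDA-MB-231. At least 4-fold differences were 887 and 573, and at least 16-fold differences 189 and 93. Of the genes that differed at least 2-fold, 85 were listed at 0 in all 4 MDA-MB-231 controls and 61 in all 4 MDA-MB-468 controls. The 4 and 4 libraries did not overlap in 11237 genes (79.6%). The contrast of DMSO libraries gave 4016 genes (28.5%) and that of thalidomide libraries 4060 (28.8%). Their mean differences share no library, but both tests take the spread of a gene from the same fit over all 24 libraries. Without the library that stood apart the count was 3979, of which 3882 were among the 4007 in the same direction. The median log2 difference over all genes was 0.08 and lay between -0.05 and 0.03 under 4 other scalings, and the share of 2-fold calls that were higher in MDA-MB-468 was 59.2% as deposited and 49.3% to 55.7% under those scalings.

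The genes furthest apart toward MDA-MB-468 were the calgranulins S100A8 and S100A9 and psoriasin S100A7, the basal keratins KRT5 and KRT17, the kallikrein protease KLK5, the matrix inhibitor of calcification MGP, the ion transport regulator FXYD3, the histone genes HIST1H3F, HIST1H1B and HIST1H2BI, and RN7SL471P, a copy of the signal recognition particle RNA. S100A9 was at 1634, 1526, 1703 and 1587 FPKM in the MDA-MB-468 controls and was listed at 0 in all 4 MDA-MB-231 controls. KRT5 was at 739, 698.5, 793.4 and 776.9 FPKM against 0, 0, 0.00752 and 0, a log2 difference of 9.55 (SE 0.03, limma adjusted p = 2.63e-27). For both genes every MDA-MB-468 library was high and every MDA-MB-231 library at or next to the floor. Toward MDA-MB-231 they were the lactate dehydrogenase subunit LDHB, the receptor AXL, the secreted IGFBP7, the thioredoxin inhibitor TXNIP, the cysteine protease inhibitor CST3, transglutaminase TGM2, the membrane protein EMP3, the proteoglycan SRGN, the glutathione transferase GSTP1, the lipolysis inhibitor G0S2, filamin FLNC and the class II invariant chain CD74. LDHB was at 0.0249, 0.0596, 0.0366 and 0.0379 FPKM in MDA-MB-468 and at 455.3, 461.4, 381.9 and 478.5 in MDA-MB-231 (log2 difference -8.74, SE 0.05, limma adjusted p = 1.65e-24). TXNIP reached at most 0.0127 FPKM in MDA-MB-468 and was between 142.1 and 164.5 in MDA-MB-231.

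Cell junction and adhesion genes were nearly all higher in MDA-MB-468. Of 38 in the table, 33 were at least 2-fold higher there and none in MDA-MB-231, and their median log2 difference was 3.33. CDH1, E-cadherin (chr16:68737225-68835548), was at 36.4, 38.0, 38.8 and 38.6 FPKM in MDA-MB-468 and at 0.188, 0.149, 0.198 and 0.173 in MDA-MB-231. The groups were far apart with little spread inside either (log2 difference 5.05, SE 0.04, limma adjusted p = 3.17e-23). EPCAM, an epithelial adhesion molecule, averaged 152 ± 5.78 FPKM against 3.52 ± 0.294 (SD, n = 4). CD24, a surface glycoprotein, was at 870 ± 46 against 2.3 ± 0.274, the largest log2 difference of the list at 8.05. The membrane protease ST14 and its inhibitor SPINT1 were high together, at 86.6 and 63.8 FPKM against 0.168 and 0.63. The tight junction claudins were not alike: CLDN7 was at 111 FPKM against 2.96 and CLDN3 at 16.2 against 0.836, while CLDN4 was present in both lines at 60.4 and 42.2, a log2 difference of 0.51. Among desmosome genes, JUP (plakoglobin) was at 83.6 FPKM against 3.75 and DSC2 at 28.4 against 0.329, whereas DSG2 did not pass the test at 18.1 and 16.1.

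The promoters of 4 genes of this set are shown because ZEB and SNAI factors, described below, recognise the E-box CAGGTG, which reads CACCTG on the opposite strand. Each is the 250 bases before the start of a gene that was at least 2-fold higher in MDA-MB-468, from RefSeq on GRCh38.p14, with the matches in capitals. They were picked from the members that hold a match, and CDH1 and EPCAM had no entry. CRB3 encodes an apical polarity protein (chr19:6464021-6464270, plus strand), RAB25 a small GTPase of epithelial cells (chr1:156060910-156061159, plus strand), AP1M2 an epithelial adaptor subunit for basolateral sorting (chr19:10587313-10587562, minus strand) and OCLN the tight junction protein occludin (chr5:69492297-69492546, plus strand).
CRB3: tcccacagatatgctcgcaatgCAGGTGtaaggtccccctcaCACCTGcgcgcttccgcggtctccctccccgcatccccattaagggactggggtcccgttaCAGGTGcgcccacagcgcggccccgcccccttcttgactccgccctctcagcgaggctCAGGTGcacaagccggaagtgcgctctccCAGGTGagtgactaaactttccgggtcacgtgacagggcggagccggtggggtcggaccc
RAB25: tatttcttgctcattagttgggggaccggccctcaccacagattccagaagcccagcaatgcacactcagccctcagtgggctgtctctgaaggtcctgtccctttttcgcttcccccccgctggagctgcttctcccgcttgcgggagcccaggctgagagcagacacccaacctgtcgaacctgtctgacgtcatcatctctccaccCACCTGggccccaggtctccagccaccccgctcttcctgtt
AP1M2: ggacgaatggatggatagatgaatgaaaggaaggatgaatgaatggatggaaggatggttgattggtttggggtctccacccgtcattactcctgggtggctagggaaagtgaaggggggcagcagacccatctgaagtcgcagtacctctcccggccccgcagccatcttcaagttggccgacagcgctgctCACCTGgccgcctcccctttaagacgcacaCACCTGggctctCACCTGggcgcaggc
OCLN: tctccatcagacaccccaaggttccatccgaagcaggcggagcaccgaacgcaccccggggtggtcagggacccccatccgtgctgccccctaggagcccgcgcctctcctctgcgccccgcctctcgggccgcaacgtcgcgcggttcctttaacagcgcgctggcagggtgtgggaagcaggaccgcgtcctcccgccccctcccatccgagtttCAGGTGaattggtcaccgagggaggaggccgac
The CRB3 window holds 5 matches, AP1M2 3, and RAB25 and OCLN 1 each. Across 9565 genes of the table with a promoter entry, 1503 (15.7%) hold at least 1 match on either strand in this window, 23 (0.24%) at least 3 and 2 (0.0209%) at least 5. Of the 21 junction genes with an entry, 8 (38.1%) hold 1 or more, the others being MUC1, DSP, DSG2 and DSC2, and the rest, such as CLDN7, JUP and SPINT1, hold none. The share varied between lists. It was 0 of 9 MAP kinase output genes, 1 of 2 keratins, 8 of 22 S100 and annexin genes (36.4%), 7 of 19 receptor ligands (36.8%) and 4 of 10 serine synthesis genes (40%). A match describes these letters only and says nothing of binding. The 4 genes were at 30, 96.2, 245 and 22.8 FPKM in MDA-MB-468, in the order given, and at 0.233, 0.0135, 22.4 and 3.47 in MDA-MB-231.

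Keratins followed the junction genes. All 15 in the table passed the test toward MDA-MB-468 and 13 were at least 2-fold higher there, with a median log2 difference of 4.23. The basal and stress keratins were near 0 in MDA-MB-231: KRT17 averaged 1000 FPKM against 0.387, KRT16 149 against 0.0195 and KRT14 24.7 against 0.00288. KRT23, a keratin of stratified and glandular epithelia, was at 271 ± 6.01 FPKM against 0.00554 ± 0.00659 (SD, n = 4). The simple keratins were present in both lines at different levels, KRT8 at 1310 against 160, KRT18 at 1150 against 221 and KRT19 at 1390 against 73.2 FPKM. KRT80 and KRT86 were the members under 2-fold. Both lines carry the label basal, and in MDA-MB-231 the basal keratins KRT5, KRT14 and KRT17 were at or next to 0. The summed keratin level was 6371 to 7170 FPKM in MDA-MB-468 and 548.6 to 630.2 in MDA-MB-231, with no overlap. Several keratins are near copies of one another, and how shared reads were assigned is not given in the sources used here.

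The factors that keep epithelial identity were higher in MDA-MB-468 in 20 of 21 cases at 2-fold or more, with none higher by 2-fold in MDA-MB-231 and a median log2 difference of 2.8. ESRP1, which directs epithelial splicing, was at 55.1, 54.3, 51.5 and 50.6 FPKM in MDA-MB-468 and at 0.0165, 0.0470, 0.00545 and 0.0103 in MDA-MB-231 (log2 difference 5.72, SE 0.03, limma adjusted p = 2.99e-25). No MDA-MB-231 library came near the lowest MDA-MB-468 library. GRHL2, a pioneer factor of epithelial enhancers, was at 36.6 FPKM against 0.00177, GRHL1 at 39.7 against 0.695 and the ETS factor ELF3 at 93.3 against 0.213. OVOL2, a repressor of ZEB1, was at 6.66 to 7.32 FPKM in MDA-MB-468 and listed at 0 in all 4 MDA-MB-231 libraries. The luminal factor FOXA1 was at 12.7 FPKM against 0.00813 and the homeobox factor BARX2 at 27.6 against 0.106. KLF5 (28.5 against 12.5) and GATA3 (6.15 against 1.94) differed less. SOX9, at 19.3 against 22.8, was the exception. ESR1, PGR and TP63 were not analysed here because they have no row in the table.

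**Figure D1:**
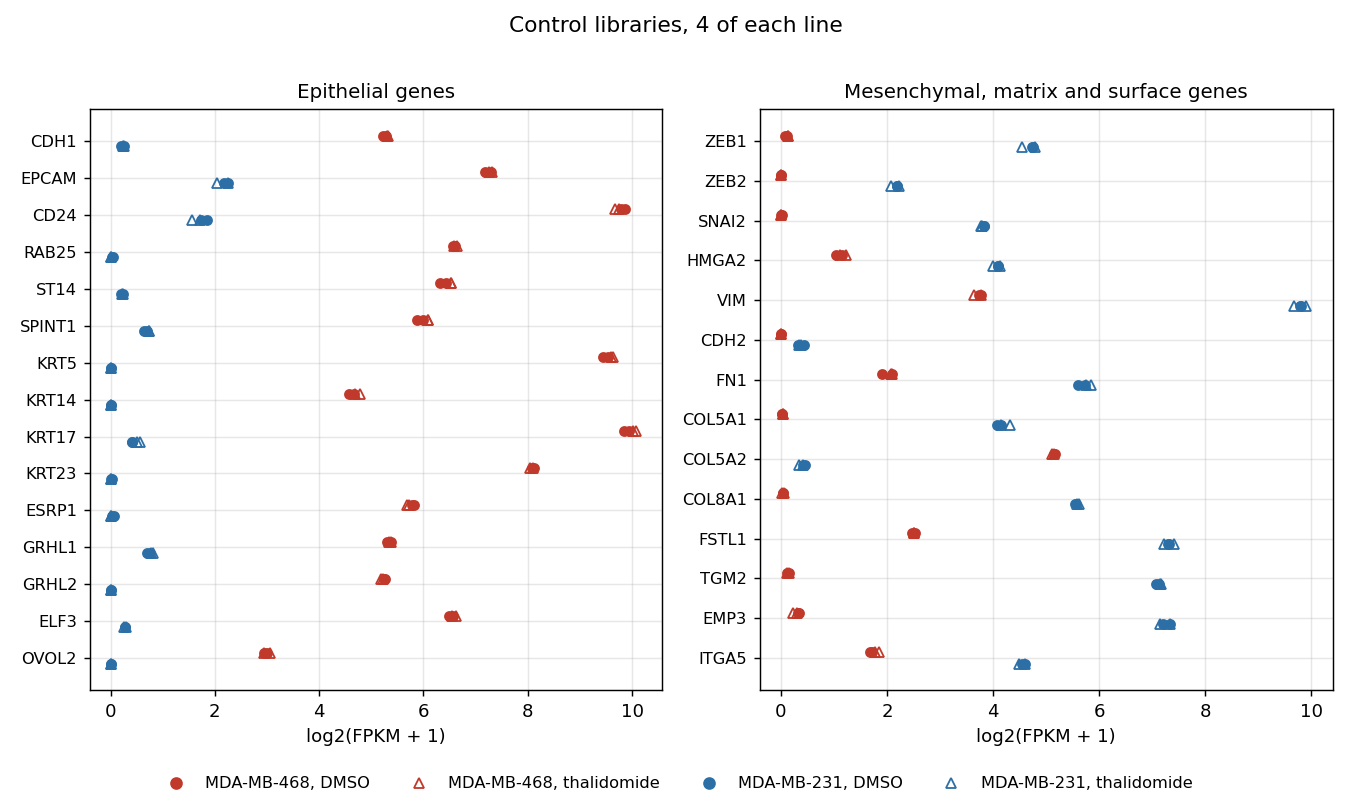
Level of 15 epithelial genes (left) and 14 mesenchymal, matrix and surface genes (right) as log2(FPKM + 1), 1 point for each of the 4 MDA-MB-468 (red) and 4 MDA-MB-231 (blue) control libraries, with DMSO as filled circles and thalidomide as open triangles. The points of the lines are apart for every gene drawn, as in 79.6% of all genes, and many of those drawn were named for a large difference. COL5A2 is the gene of the right panel that was higher in MDA-MB-468.

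Mesenchymal transcription factors did not all go the same way. Of 21 in the table, 8 were at least 2-fold higher in MDA-MB-231, beside 11.6% of all genes. In MDA-MB-468 4 were so, near the share of all genes (16.8%), and the median log2 difference was -0.73. ZEB1, a repressor of CDH1, was at 0.0858, 0.0480, 0.0941 and 0.0961 FPKM in MDA-MB-468 and at 25.7, 25.8, 22.3 and 26.7 in MDA-MB-231 (log2 difference -4.59, SE 0.04, limma adjusted p = 1.1e-21). Every MDA-MB-231 library was high, the lowest being the thalidomide library that stood apart. ZEB2 was at 3.2 to 3.65 FPKM in MDA-MB-231 and listed at 0 in all 4 MDA-MB-468 libraries. SNAI2, the Slug protein gene, averaged 13 FPKM against 0.00184. SNAI1 did not pass the test (0.455 and 0.604 FPKM), and neither did TWIST1, which was next to 0 in both lines. HMGA2 and HMGA1, chromatin proteins of undifferentiated cells, were at 15.9 and 496 FPKM in MDA-MB-231 against 1.2 and 125. The 4 factors that were higher in MDA-MB-468 were KLF8 (5.96 against 0.0642 FPKM), TWIST2 (3.27 against a listing at 0), FOXD1 (2.49 against 0.00457) and MSX2 (3.12 against 0.481).

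Cytoskeletal and surface genes of mesenchymal cells were at least 2-fold higher in MDA-MB-231 in 13 of 24 cases and in MDA-MB-468 in 2, MME and ENG. VIM, the vimentin filament gene, was at 12.4, 12.7, 12.6 and 11.6 FPKM in MDA-MB-468 and at 888.2, 901, 816.1 and 959.2 in MDA-MB-231 (log2 difference -6.07, SE 0.04, limma adjusted p = 2.53e-23). It was thus present in both lines, with no overlap. The caveolar coat genes PRKCDBP and SDPR were at 56.3 and 27.4 FPKM in MDA-MB-231, against 0.0168 and 0.0772, while CAV1 itself differed less, 355 against 169. N-cadherin did not mark the contrast: CDH2 was at 0.257 to 0.346 FPKM in MDA-MB-231 and listed at 0 in all 4 MDA-MB-468 libraries. Other cadherins did, with CDH4 at 15.2 FPKM against 0.0146 and CDH11 at 10.5 against a listing at 0. CD44, a hyaluronan receptor, was close in both lines at 363 and 342 FPKM. MME, the surface peptidase CD10, went the other way at 28.6 FPKM against 0.00766.

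Matrix genes were at least 2-fold higher in MDA-MB-231 in 19 of 34 cases and in MDA-MB-468 in 5, with a median log2 difference of -1.52. FN1, fibronectin, was at 2.74 to 3.29 FPKM in MDA-MB-468 and at 47.7 to 56.9 in MDA-MB-231 (log2 difference -3.69, SE 0.06, limma adjusted p = 1.75e-18). COL8A1 was at 46.9 FPKM against 0.0263 and the secreted glycoprotein FSTL1 at 159 ± 8.26 against 4.69 ± 0.111 (SD, n = 4). The chains of a single collagen did not move together: COL5A1 was at 17.1 FPKM in MDA-MB-231 against 0.021 in MDA-MB-468, and COL5A2 at 0.322 against 34.5. Laminin chains differed likewise, LAMB3 at 104 FPKM in MDA-MB-231 against 9.63 and LAMA4 at 0.42 against 30.9. TNC, tenascin C, was higher in MDA-MB-468 at 44.2 against 3.2. SPARC and COL3A1, abundant in fibroblasts, were under 0.3 FPKM in both lines.

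Among extracellular proteases and their inhibitors, 11 of 23 were at least 2-fold higher in MDA-MB-231 while 6 were so in MDA-MB-468, and the sides held different families. MDA-MB-231 had the plasminogen activators PLAT, at 50.1 ± 4.24 FPKM against 0.639 ± 0.0298 (SD, n = 4), and PLAU, at 113 against 32, and the metalloproteinases MMP14 (79.5 against 4.13) and MMP1 (20.1 against 0.00822). The metalloproteinase inhibitors TIMP1 and TIMP2 were also higher there, at 155 and 82.6 FPKM against 10.8 and 8.82. MDA-MB-468 had the kallikreins, with KLK5 at 368.5 to 405.7 FPKM and listed at 0 in all 4 MDA-MB-231 libraries, KLK10 at 22.5 against 0.0124 and KLK6 at 30.6 against 0.00406, and the inhibitor SLPI at 268 against 0.0879. Among 16 integrins, 5 were at least 2-fold higher in MDA-MB-231 (ITGA5, ITGA3, ITGB1, ITGA6 and ITGA1) and 2 in MDA-MB-468. Those were the TGF-beta activating subunits ITGB6, at 37.1 FPKM against 0.0123, and ITGB8, at 15.5 against 0.268. The fibronectin receptor subunit ITGA5 was at 22.6 FPKM in MDA-MB-231 against 2.38, and its partner ITGB1 at 355 against 95.3.

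Receptor tyrosine kinases favoured MDA-MB-468 in number, with 11 of 31 at least 2-fold higher there and 4 in MDA-MB-231, and a median log2 difference of 0.52. EGFR (chr7:55019021-55211628) was at 678.4, 764.4, 745.1 and 764.6 FPKM in MDA-MB-468 and at 45.4, 47.6, 58.4 and 47.6 in MDA-MB-231 (log2 difference 3.87, SE 0.06, limma adjusted p = 6.68e-19). It was expressed in both lines, and the lowest MDA-MB-468 library was far above the highest MDA-MB-231 library. Its partner ERBB3 was at 19.2 FPKM against 1.24, the collagen receptor DDR1 at 154 against 12.7, FGFR2 at 9.35 against 0.161 and EPHB6 at 10.7 against 0.0183. AXL (the receptor of GAS6) was at 1.56, 1.95, 1.87 and 1.82 FPKM in the MDA-MB-468 controls and at 545.5, 533.5, 536.2 and 572 in MDA-MB-231 (log2 difference -7.61, SE 0.04, limma adjusted p = 2.34e-24). No other receptor tyrosine kinase in the list differed by as much. EPHA2, MERTK and PDGFRB were the other 3 that were higher in MDA-MB-231, at 68.7, 2.83 and 1.32 FPKM against 20.3, 0.534 and 0.0131. ERBB2, at 12.4 against 18.5 FPKM, and MET, at 74.7 against 49.7, passed the test with differences under 2-fold.

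Ligands were divided between the lines, with 9 of 25 at least 2-fold higher in MDA-MB-231 against 8 in MDA-MB-468. Most EGFR family ligands in the table were on the MDA-MB-231 side, where the receptor was lower. NRG1, the ligand of ERBB3, was at 26.1, 24.7, 22 and 23.7 FPKM in MDA-MB-231, while MDA-MB-468 had it listed at 0 in 3 libraries and at 0.00866 in the fourth (log2 difference -4.64, SE 0.04, limma adjusted p = 9.02e-23). HBEGF was at 36.5 FPKM against 3.79, AREG at 28.8 against 3.71, EREG at 7.82 against 0.141 and TGFA at 31 against 18.4. GAS6, the ligand of AXL, was at 68.3 ± 1.43 FPKM against 7.18 ± 0.791 (SD, n = 4), so this receptor and its ligand were high in the same line. VEGFC was at 9.15 to 9.82 FPKM in MDA-MB-231 and listed at 0 in all MDA-MB-468 controls. MDA-MB-468 had PDGFB at 17.6 FPKM against 0.0503, the KIT ligand KITLG at 31.4 against 4.14, and the ephrins EFNA1, EFNA4, EFNB1 and EFNB2.

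Nuclear hormone receptors differed at least 2-fold in 8 of 18, 6 toward MDA-MB-468, with a median log2 difference of 0.1 that turned to -0.01 under median-of-ratios scaling. NR2F2 (COUP-TFII) was the large difference toward MDA-MB-231, at 34.1, 33.3, 47.3 and 32.6 FPKM against 0.377 to 0.599, with its highest value in the library that stood apart. Its log2 difference was -4.62 with that library and -4.49 without it. THRB, the thyroid hormone receptor beta gene, was at 11.9 FPKM in MDA-MB-468 against 0.366, the retinoic acid receptor RARG at 22.1 against 5.61 and VDR at 15.3 against 4.63. The glucocorticoid receptor NR3C1 was at 24 FPKM against 48.3.

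**Figure D2:**
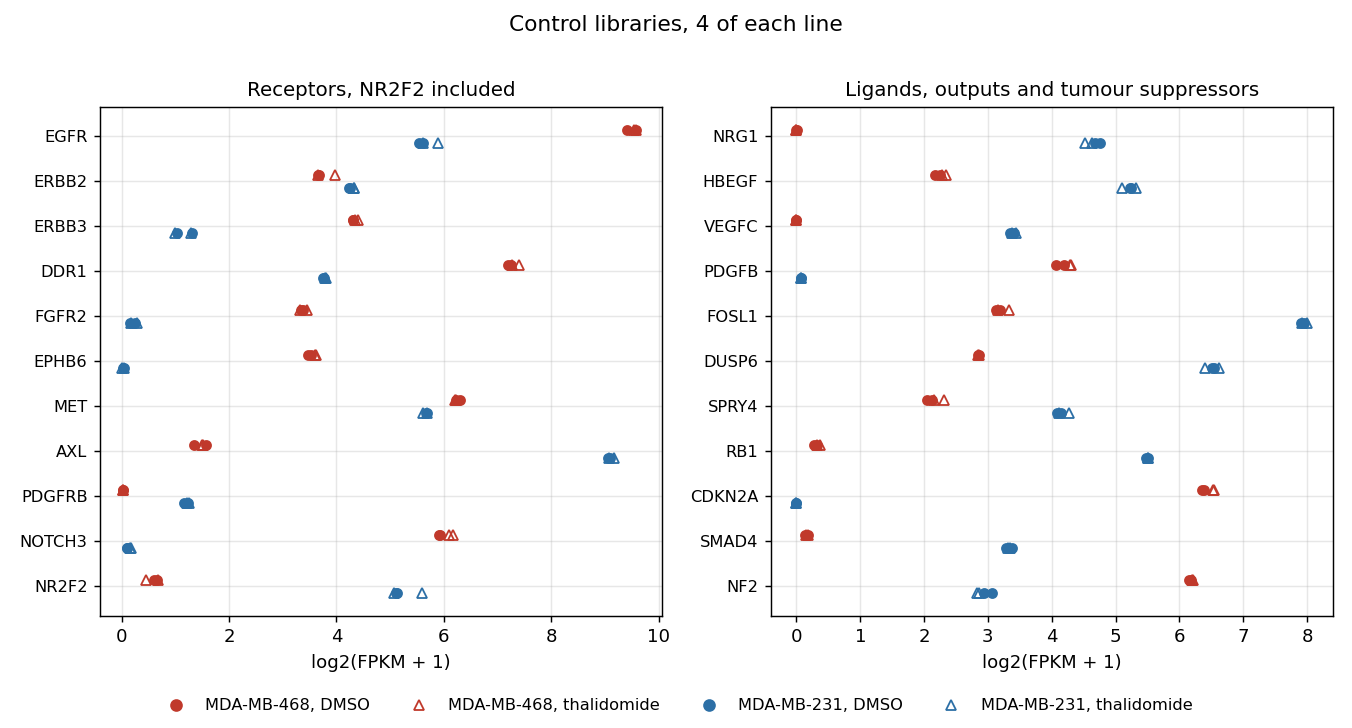
Level of 11 receptors (left, NR2F2 included) and 11 ligands, MAP kinase output genes and tumour suppressors (right) as log2(FPKM + 1), 1 point for each of the 8 control libraries, coloured by line with DMSO as filled circles and thalidomide as open triangles. EGFR is higher in MDA-MB-468 and expressed in both lines, while AXL is high in MDA-MB-231 and low in MDA-MB-468. RB1, SMAD4, NF2 and CDKN2A are each near the floor or low in 1 line only.

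Genes known to be switched on by the ERK branch of MAP kinase signalling were higher in MDA-MB-231. Of 17, 11 were at least 2-fold higher there and 2, IER3 and EGR1, in MDA-MB-468, with a median log2 difference of -1.62. FOSL1, a component of the AP-1 factor, was at 8.13, 7.72, 7.9 and 9.03 FPKM in MDA-MB-468 and at 246.6, 239.3, 240.8 and 254.8 in MDA-MB-231 (log2 difference -4.75, SE 0.04, limma adjusted p = 1.28e-21). The lines did not come close in any library. The ERK phosphatase DUSP6 was at 90.8 ± 5.99 FPKM against 6.22 ± 0.03 (SD, n = 4), and the feedback inhibitors SPRY4 and SPRY2 were at 16.8 and 40.2 against 3.47 and 11.8. CCND1, cyclin D1, was at 187 FPKM against 44. The genes of the pathway itself differed far less: of 21 RAS and RAF family members and regulators NF1 and MAPK3 (higher in MDA-MB-468) and RRAS (higher in MDA-MB-231) reached 2-fold. Without the library that stood apart MAPK3 was just under it (log2 0.99) and HRAS just past it (-1.01). BRAF did not pass the test at 6.66 and 7.24 FPKM (log2 difference -0.1). BRAF did pass without MDA-MB-231 thalidomide replicate 2 (-0.2, limma adjusted p = 0.000753) and under 3 of 4 other scalings, between -0.29 and -0.2, and without thalidomide replicate 1 of MDA-MB-231 its log2 difference was 0 (adjusted p = 0.962). Of 22 PI3K and AKT pathway genes, 3 were at least 2-fold higher in each line, near the shares of all genes (16.8% toward MDA-MB-468 and 11.6% toward MDA-MB-231). The regulatory subunits PIK3R3 (29.9 against 0.858 FPKM) and PIK3R1 (11.6 against 3.45) were higher in MDA-MB-468, and the adaptor IRS1 in MDA-MB-231 (19.9 against 4.07).

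Developmental pathways differed by member. In the Notch list 6 of 18 genes were at least 2-fold higher in MDA-MB-468 and 2 in MDA-MB-231. The receptor NOTCH3 was at 59.5, 59.1, 67.3 and 71.2 FPKM in MDA-MB-468 and at 0.0683, 0.0690, 0.122 and 0.118 in MDA-MB-231 (log2 difference 5.89, SE 0.05, limma adjusted p = 1.74e-22). HES4 and HES1, of a family of Notch target genes, were higher in the same line, at 84.9 FPKM against 8.38 and 35.4 against 5.93. The receptor NOTCH2 and the DNA-binding partner RBPJ were higher in MDA-MB-231. The part of any receptor in the HES levels was not tested. Wnt genes were at least 2-fold higher in MDA-MB-468 in 13 of 31 cases and in MDA-MB-231 in 6. The ligands WNT6 (78.3 FPKM against 0.00269), WNT10A (18.5 against 0.0526) and WNT7B (30.8 against 3.2) and the inhibitor SFRP1 (46.5 against 0.0314) were high in MDA-MB-468, and the inhibitor DKK1 in MDA-MB-231 (226 against 28). In the TGF-beta and BMP list 10 of 35 were higher in MDA-MB-468 and 8 in MDA-MB-231 by 2-fold, with a median log2 difference of 0.14 that was -0.08 after quantile normalization. The ligands BMP2 and BMP7 were at 13.2 and 10 FPKM in MDA-MB-468 against 0.0925 and 0.147, and BMP4 was at 41.9 in MDA-MB-231 against 5.48. The secreted antagonists FST and NOG were on the MDA-MB-231 side, at 19.8 and 20.9 FPKM against 0.269 and 0.4.

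YAP and TEAD are the effectors of the Hippo pathway. In a list of their targets that also holds TEAD2 itself, 11 of 27 genes were at least 2-fold higher in MDA-MB-231, AXL among them. In MDA-MB-468 3 were so, TEAD2, GADD45A and IGFBP3. ANKRD1 was at 183 ± 13.9 FPKM against 10.5 ± 0.6 (SD, n = 4). CTGF was at 40.4, 42.1, 73.7 and 38.8 FPKM and CYR61 at 89.6, 93.3, 156.7 and 81.9 in MDA-MB-231, with the highest value of each in the library that stood apart. Their log2 differences were -3.18 and -1.83 with it and -2.96 and -1.6 without it. YAP1 did not pass the test, at 73.9 and 70.3 FPKM.

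Cytokine and chemokine genes with NF-kB subunits were at least 2-fold higher in MDA-MB-231 in 9 of 27 cases and in MDA-MB-468 in 3. IL11 was at 64.7, 67.1, 64.8 and 78.9 FPKM in MDA-MB-231 and under 0.44 in every MDA-MB-468 library, IL32 was at 41.9 against 0.644, IL24 at 26 against 0.236 and the chemokine receptor CXCR4 at 12.2 against 0.00479. CCL28 and CXCL16, chemokines of epithelial surfaces, went the other way, at 32.8 and 17 FPKM against 1.36 and 1.25. Of 37 interferon response genes, 12 were at least 2-fold higher in MDA-MB-231, beside 11.6% of all genes. Among them were the DNA sensor IFI16 (26.8 against 0.0254 FPKM), IFI27 (30 against 0.161) and IFIT1 (24.2 against 2.62). In MDA-MB-468 7 were so, near the share of all genes (16.8%), such as USP18 (11 against 0.762), OAS1 (4.46 against 0.436) and MX1 (10.1 against 2.84). In antigen presentation 9 of 23 were higher in MDA-MB-231 by 2-fold and 1, PSMB10, in MDA-MB-468. The difference lay mainly in class II genes: CD74 was at 84.8 FPKM against 0.193, HLA-DRA at 11.9 against 0.0132, HLA-DPA1 at 4.94 against 0.0117, and HLA-DRB1 at 4.27 to 4.44 against a listing at 0 in all 4 MDA-MB-468 libraries. CD274, which encodes the checkpoint ligand PD-L1, was at 13.4 ± 1.21 FPKM against 0.471 ± 0.0861 (SD, n = 4), while B2M did not pass the test at 672 and 692. HLA genes are near copies, and how their shared reads were assigned is not given in the sources used here.

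In the list of G1 control genes and tumour suppressors, each line lacked different members. RB1 (chr13:48303726-48599436), the retinoblastoma protein gene, was at 0.248, 0.212, 0.288 and 0.248 FPKM in MDA-MB-468 and at 44.4, 43.6, 44.6 and 44.5 in MDA-MB-231 (log2 difference -5.18, SE 0.04, limma adjusted p = 2.8e-23). SMAD4 (chr18:51028394-51085045), the common SMAD of TGF-beta signalling, was at 0.121 FPKM in MDA-MB-468 against 9.07. In the other direction, CDKN2A (chr9:21967753-21995301), which encodes p16 and ARF, was at 83, 81, 90.8 and 92.7 FPKM in MDA-MB-468 and listed at 0 in all 4 MDA-MB-231 libraries, and CDKN2B was at 13 to 13.8 and listed at 0. Its neighbour MTAP was at 21.7 FPKM against 0.232, and NF2 (chr22:29603556-29698598), the merlin gene, at 71.8 against 6.6. RB1 and CDKN2A were thus in opposite order in the lines. CDK6 was at 7.66 FPKM in MDA-MB-468 and 53 in MDA-MB-231, and E2F2 at 22 and 3.96. Of 25 genes of mitosis and replication, 18 passed the test toward MDA-MB-231 and 5 toward MDA-MB-468, beside 38.4% and 47.8% of all genes. At 2-fold only 5 and 1 did so, beside 11.6% and 16.8% of all genes. MKI67 was at 72, 79.4, 142.3 and 67.9 FPKM in MDA-MB-231 against 17.8 to 22, and its log2 difference of -2.02 was -1.75 without the library that stood apart. PCNA was the member at least 2-fold higher in MDA-MB-468, at 273 against 128.

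Metabolic genes differed by member. In serine and one-carbon synthesis 5 of 13 were at least 2-fold higher in MDA-MB-468 and none in MDA-MB-231. PHGDH, the first enzyme of serine synthesis, was at 173.1, 158.4, 178.3 and 173.4 FPKM in MDA-MB-468 and at 0.88, 1.04, 0.958 and 0.993 in MDA-MB-231 (log2 difference 6.45, SE 0.04, limma adjusted p = 1.96e-23). The enzymes after it differed less, PSPH at 128 against 17.8 FPKM and PSAT1 at 95.3 against 55.3, and the mitochondrial folate enzyme MTHFD2 was at 119 against 34.7. Of 26 glycolysis and lactate genes, 10 were at least 2-fold higher in MDA-MB-231 against 2 in MDA-MB-468. LDHA was close in both lines (534 and 647 FPKM), in contrast to LDHB. Lactate transporters were exchanged: SLC16A3 was at 148 FPKM in MDA-MB-231 against 5.14, and SLC16A1 at 0.138 against 15.4. Redox and xenobiotic enzymes were at least 2-fold higher in MDA-MB-468 in 10 of 33 cases and in MDA-MB-231 in 8. The aldo-keto and aldehyde enzymes AKR1B10 (96.5 FPKM against 0.207), AKR1C2 (23.4 against 0.0575) and ALDH1A3 (115 against 1.36) were high in MDA-MB-468, and GSTP1 (286 against 1.46), GPX3 (56.8 against 0.721) and the metallothionein MT1E (155 against 4) in MDA-MB-231. AKR1C and metallothionein genes are near copies of each other.

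S100 calcium-binding genes and annexins were at least 2-fold higher in MDA-MB-468 in 9 of 23 cases and in MDA-MB-231 in 3. Besides the calgranulins, S100A14 was at 265 FPKM against 0.0464 and S100P at 20.2 against 0.492, while S100A10 did not pass the test (267 and 261) and ANXA6 was at 12.8 against 156. Of 39 HOX genes, 28 had no row in the table, which leaves out genes low in every group. Of the other 11, 8 were at least 2-fold higher in MDA-MB-468 and 1 in MDA-MB-231. Members at 0 in MDA-MB-231 have a row only through other lines, which favours such a count. The order was not particular to MDA-MB-468: 9 of the 11 were higher in MDA-MB-157 than in MDA-MB-231. Between MDA-MB-468 and MDA-MB-157, 2 were higher in each. HOXC10, HOXC11 and HOXC12 were at 9.12, 5.42 and 6.29 FPKM in MDA-MB-468 and listed at 0 in all MDA-MB-231 controls, and HOXB9 was at 8.54 in MDA-MB-231 against 0.0168. Of 26 cancer-testis genes, 21 had no row in the table. Of the other 5, 3 were at least 2-fold higher in MDA-MB-468 and 0 in MDA-MB-231. MAGEA3 and MAGEA12 were at 84 and 92 FPKM in MDA-MB-468 and listed at 0 in MDA-MB-231, and MAGEA6 was at 75.9 against 0.016. These 3 genes lie within the GABRA3 to NSDHL run on the X chromosome, described at the end. MAGEC2 was next to 0 in both lines, at 0.0159 and 0.082 FPKM. Markers of other cell types were low in both lines: 14 of 24 had no row in the table, and the summed level of the other 10 was 3.04 to 3.81 FPKM in MDA-MB-468 and 4.64 to 4.93 in MDA-MB-231. Some genes that the compounds of the study act through were present in both lines. CRBN, the cereblon gene, was at 15.1 FPKM in MDA-MB-468 and 13.1 in MDA-MB-231, BRD2 at 65.3 and 92.6 and BRD3 at 3.93 and 4.97.

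**Figure D3:**
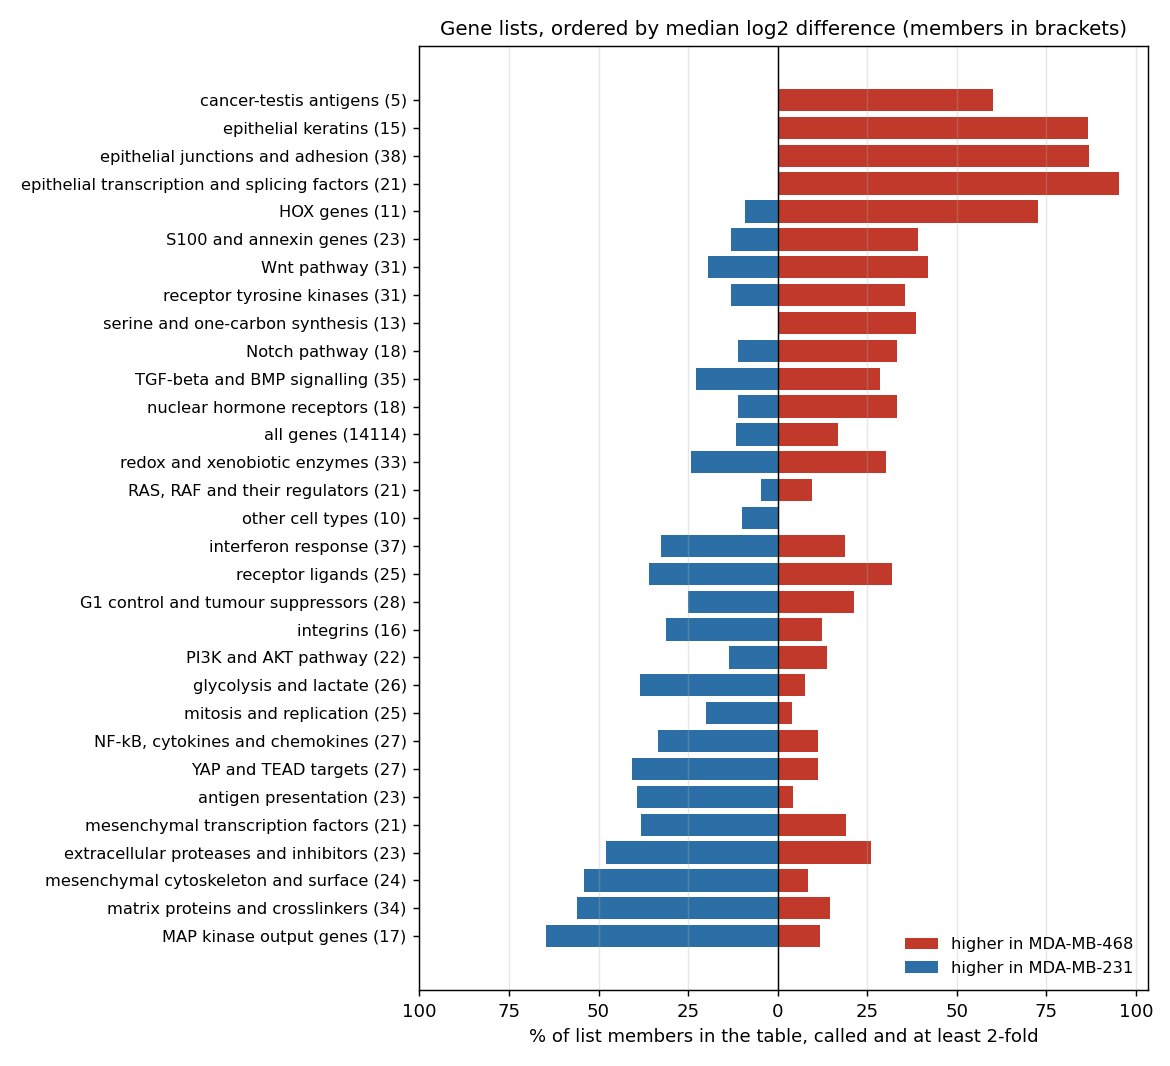
Share of the members of each of the 30 gene lists that passed the test and were at least 2-fold higher in MDA-MB-468 (red, to the right) or in MDA-MB-231 (blue, to the left), in percent of the members in the table, whose number is in brackets, with all 14114 genes as the background. The epithelial lists reach furthest to the right and the MAP kinase output and matrix lists furthest to the left, against 16.8% and 11.6% of all genes.

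Some of the largest differences lay side by side on chromosomes, which was noticed after the values were seen. With 12033 protein-coding genes of the table in chromosome order (GENCODE 29, GRCh38), 8 runs of at least 8 genes in a row differed at least 2-fold in the same direction, 4 of them of at least 10 genes. Around EGFR, 13 genes in a row from SEC61G to NUPR1L (chr7:54752250-56116400) were higher in MDA-MB-468. SEC61G, a subunit of the protein translocation channel, averaged 4020 FPKM against 147, LANCL2 290 against 9.86, VOPP1 562 against 63.6 and CHCHD2 1140 against 219. The serine synthesis gene PSPH belongs to this stretch. GRB10, next before it in the table, was at 11.3 FPKM against 23.4. On the short arm of chromosome 9, 6 genes in a row from FOCAD to ELAVL2 (chr9:20658309-23826337), CDKN2A and CDKN2B among them, were low in MDA-MB-231. FOCAD was at 1.44 FPKM there against 10.9 in MDA-MB-468, KLHL9 at 0.00323 against 6.96, and ELAVL2 was listed at 0 against 4.69. The flanking MLLT3 and TUSC1 were present in both lines, at 4.73 and 5.2 FPKM in MDA-MB-468 and 7.14 and 3.67 in MDA-MB-231.

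The longest run was a block of 14 genes in the histone cluster of chromosome 6, from HIST1H4D to HIST1H2BI (chr6:26188765-26273356). HIST1H3F was at 601.8, 546.3, 649.9 and 607 FPKM in MDA-MB-468 and listed at 0 in all 4 MDA-MB-231 libraries, and HIST1H2AE was at 266 to 325 against 0 to 0.0393. Directly before the block, HIST1H2BE went the other way at 0.349 FPKM against 33.4. HIST1H4H, directly after it, was high in both lines at 523 and 502 FPKM. Of 60 clustered histone genes in the table, 24 were at least 2-fold higher in MDA-MB-468 and 5 in MDA-MB-231, and 19 were below 0.2 FPKM in every MDA-MB-231 control and above 5 in every MDA-MB-468 control. Another stretch ran the other way: 10 genes from HMOX2 to UBN1 (chr16:4474690-4882360) were higher in MDA-MB-231. UBN1, a histone chaperone subunit, was at 19.1 FPKM there and listed at 0 in MDA-MB-468, GLYR1 at 22 against 0.00452 and MGRN1 at 9.03 against 0.00508, while NMRAL1 before the stretch was present in both and SEC14L5 after it was at 3.66 in MDA-MB-468 against 0.0426. Around RB1, RCBTB2, which lies within it, was also lower in MDA-MB-468 at 0.288 FPKM against 2.41. ITM2B before RB1 was at 61.4 and 64.1 FPKM and FNDC3A after it at 14.5 and 18.2, and ME2 and MEX3C around SMAD4 were higher in MDA-MB-468. DNA copy number was not measured here, so its part in these stretches was not tested. Histone genes are near copies. Genes of these stretches and their flanks that overlap are HMOX2 with NMRAL1, UBN1 with GLYR1, MRPS17 with GBAS and SUMF2 with PHKG1. HIST1H2AD with RP1-34B20.21 and RCBTB2 with RB1 overlap too. The kit does not mark strand, so reads of near copies and of overlapping genes may be shared.

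**Figure D4:**
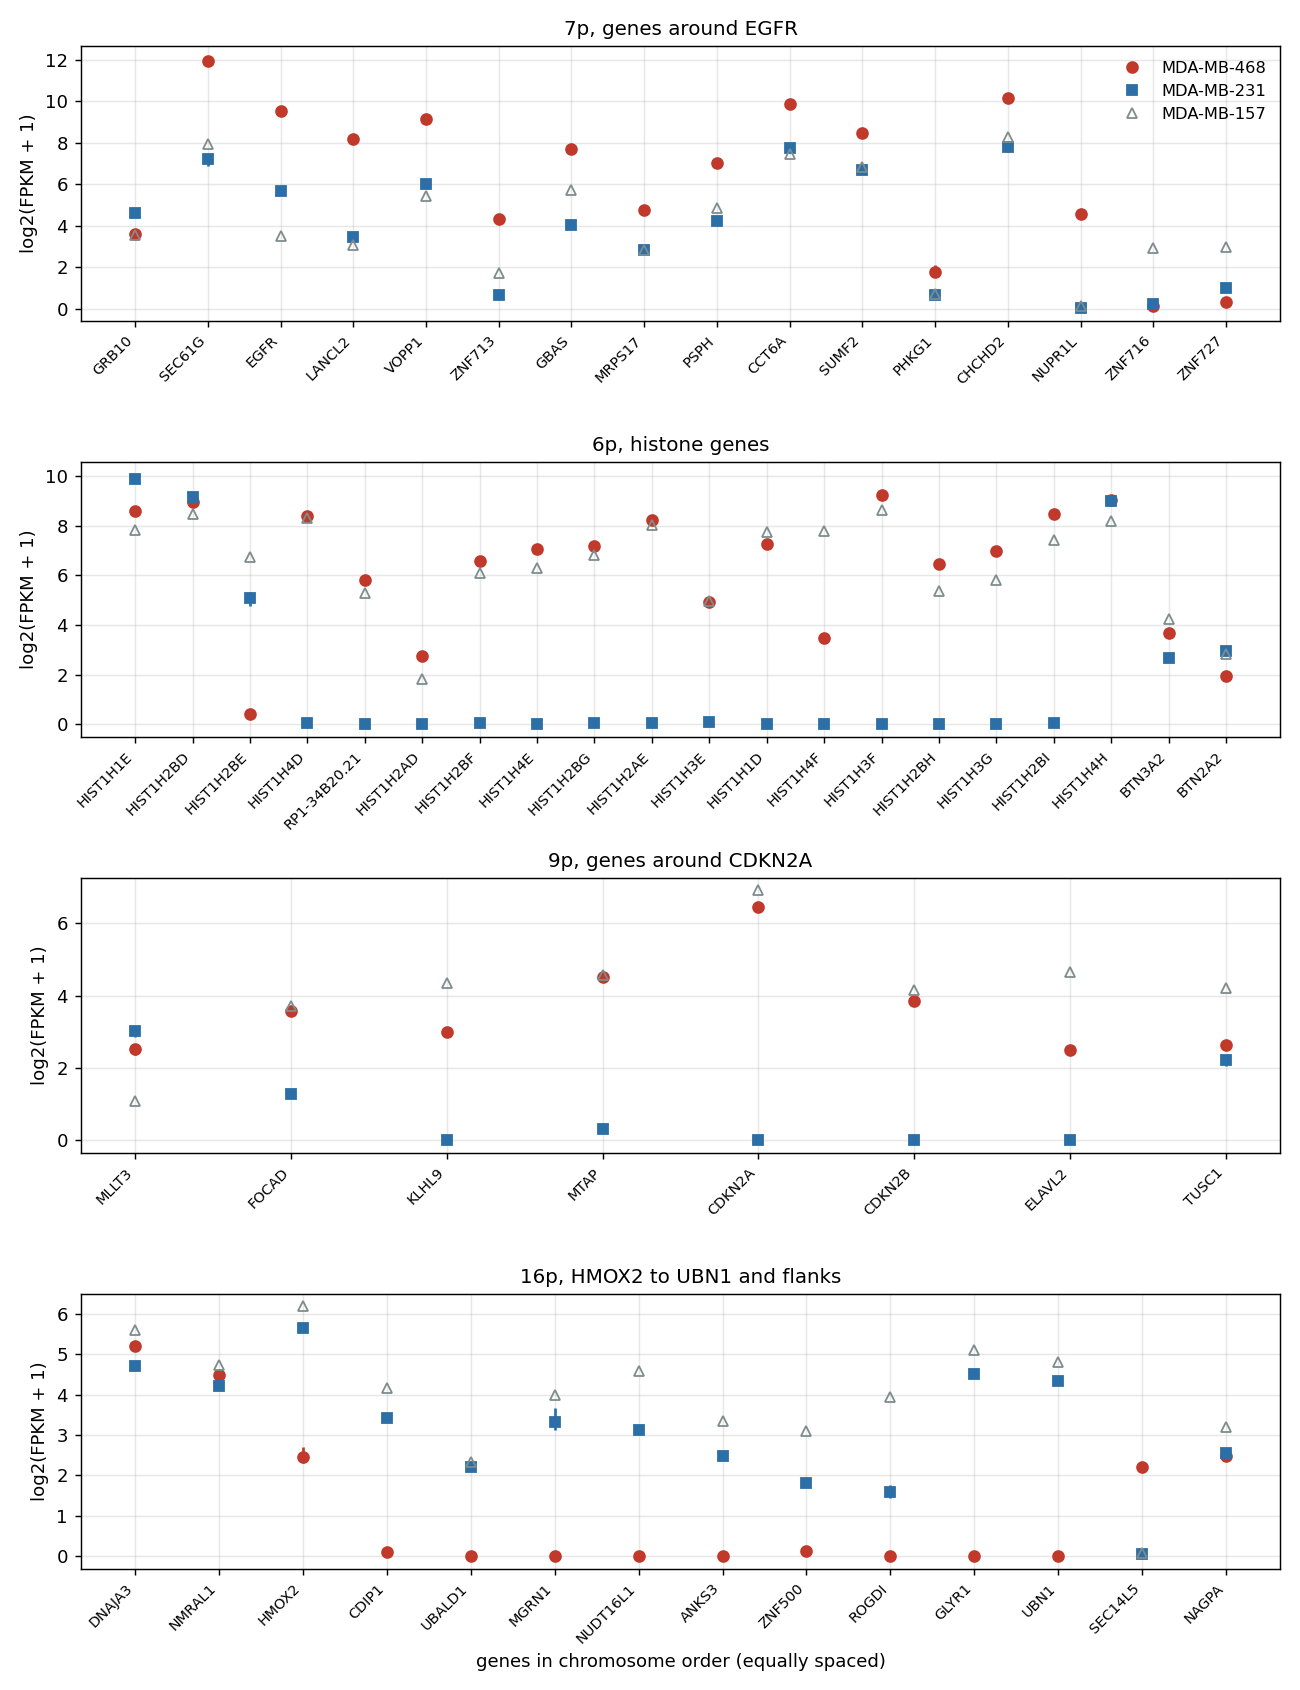
Mean level as log2(FPKM + 1) of neighbouring genes in 4 chromosome stretches, in chromosome order and equally spaced, for the control libraries of MDA-MB-468 (red circles), MDA-MB-231 (blue squares) and MDA-MB-157 (open grey triangles), with lines from the lowest to the highest of the 4 libraries for the first 2 lines. The 9p and 6p blocks are at or near the floor in MDA-MB-231 only, and most of the 16p block in MDA-MB-468 only. Around EGFR, the genes from SEC61G to NUPR1L are highest in MDA-MB-468, while the flanking GRB10 is highest in MDA-MB-231 and ZNF716 and ZNF727 in MDA-MB-157.

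The third line gives the contrast a scale. The 4 MDA-MB-157 controls differed at least 2-fold from MDA-MB-468 in 4539 genes (32.2%; 15% of genes higher in MDA-MB-468 and 17.2% higher in MDA-MB-157) and from MDA-MB-231 in 4252 (30.1%; 19% higher in MDA-MB-157 and 11.1% higher in MDA-MB-231), and these contrasts share libraries with the one above. Of the 38 junction genes, 37 were at least 2-fold higher in MDA-MB-468 than in MDA-MB-157, while 6 were higher in MDA-MB-157 than in MDA-MB-231 and 9 lower. Of the 15 keratins, all were higher in MDA-MB-468 than in MDA-MB-157. Of 34 matrix genes, 25 were higher in MDA-MB-157 than in MDA-MB-468 and 23 higher than in MDA-MB-231. Several mesenchymal genes near the floor in MDA-MB-231 were high in MDA-MB-157, with CDH2 at 21.6 FPKM, SPARC at 1050 and TWIST1 at 38.9, and VIM was at 2000. The MAP kinase output genes were higher in MDA-MB-231 than in MDA-MB-157 in 13 of 17 cases and lower in none, with FOSL1 at 25.5 and DUSP6 at 3.01 FPKM in MDA-MB-157. In MDA-MB-157, CDKN2A was at 119 FPKM, NF2 at 67.4, RB1 at 13.3 and SMAD4 at 18.1. HIST1H3F was at 397 FPKM there and HIST1H4F at 221, the latter against 10.2 in MDA-MB-468.

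The line difference was then read in libraries that the baseline contrast does not use. With BETi-211, 3851 genes differed at least 2-fold between the lines (27.3%; 16.2% higher in MDA-MB-468 and 11.1% higher in MDA-MB-231), and with BETd-246, 4055 did (28.7%; 16.9% and 11.8%). Of the 2373 genes higher in MDA-MB-468 at baseline, 2069 (87.2%) were at least 2-fold higher there with BETi-211, which is 90.3% of that compound's list, and 2136 (90%) with BETd-246, 89.4% of its list. Of the 1634 genes higher in MDA-MB-231, 1396 (85.4%) were so with BETi-211, 89.5% of its list, and 1481 (90.6%) with BETd-246, 88.8% of its list. All 33 junction genes and all 13 keratins that were at least 2-fold higher in MDA-MB-468 at baseline were so with each compound. Of the 20 epithelial transcription and splicing factors 18 were so with BETi-211 and 17 with BETd-246, and of 17 receptor ligands that differed in either direction 13 and 15 still did. EGFR, AXL and VIM kept log2 differences of 3.85, -7.75 and -6.12 with BETd-246.

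Where BETd-246 changed the line difference, most changes were toward MDA-MB-231. The interaction of line and BETd-246 passed the test at 2-fold or more in 134 genes (0.949%), with 32 moving toward MDA-MB-468 (0.227%) and 102 toward MDA-MB-231 (0.723%). A gene near 0 in 1 line enters these counts through its change in the other line alone. How many were of this kind was not counted, so the split is not read as differing responses. The 4 largest were TRIB1 (-2.66), a pseudokinase, FOXI1 (-2.52), a forkhead factor of ionocytes, the immediate early factor EGR1 (-2.5) and U1 (-2.46), a spliceosomal RNA with many copies. TRIB1 was at 12.9 FPKM in MDA-MB-468 and 2.48 in MDA-MB-231 at baseline, a log2 difference of 2 that was -0.66 with BETd-246 (1.88 and 3.53 FPKM). Among the identity genes above, the difference in FOXA1 fell by 2.08 on the log2 scale to 1.68 and that in ELF3 by 1.57 to 4.71. The difference in SNAI2 moved by 2.36, from -3.8 to -1.45. With and without BETd-246, FOXI1, FOXA1 and ELF3 were near 0 in MDA-MB-231, and SNAI2 was near 0 in MDA-MB-468. A fall of these genes in that line could not be seen, so their interaction cannot be read as a differing response. These are changes after 3 hours, and the baseline term of the interaction is the baseline contrast itself.

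**Figure D5:**
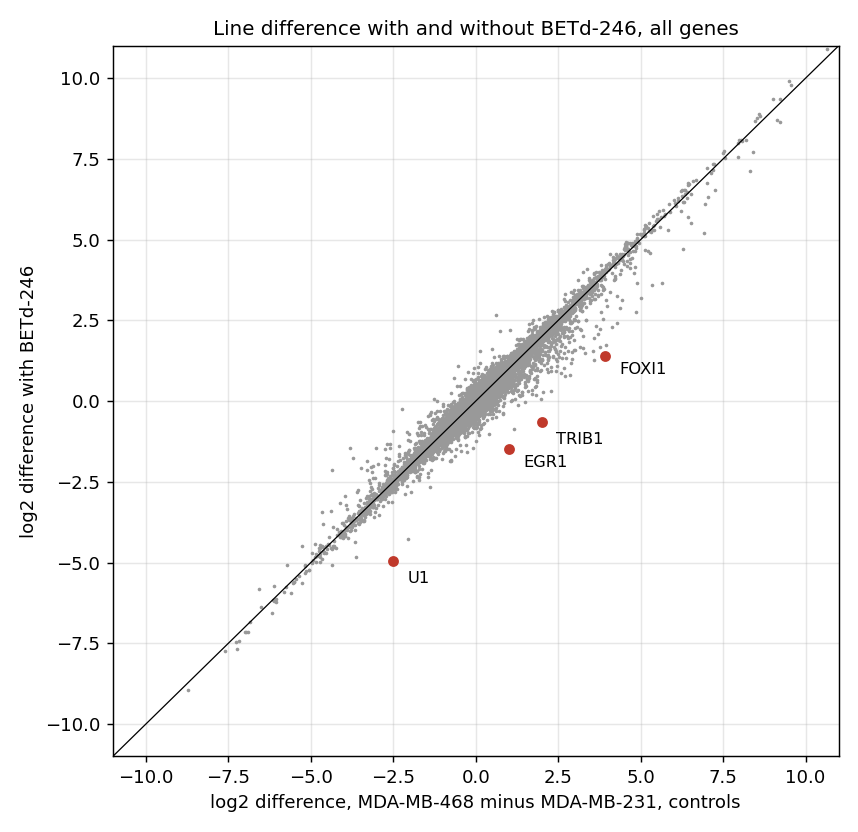
Log2 difference between MDA-MB-468 and MDA-MB-231 with BETd-246 (y axis, 2 libraries a line) against the same difference in the controls (x axis, 4 libraries a line) on the log2(FPKM + 1) scale, 1 grey point for each of 14114 genes, with the line of equality in black. Most points lie along that line, and TRIB1, FOXI1, EGR1 and U1 (red) lie 2.46 to 2.66 below it.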

How the data were processed

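RNA depleted of ribosomal RNA was sequenced with a TruSeq v2 kit, which does not mark strand, per the labels' protocols. bcl2fastq 2.17.1.14, Bowtie 0.12.8 and build GRCh38.p5 are named in the submitters' processing notes; the counting tool is not given in the sources used here. The deposited table holds 14114 genes in 24 columns, all mapped to samples. The authors deposited values that were read as FPKM: the columns are not labelled with a unit, and the smallest values fall with transcript length (Spearman rho -0.71 across 236 genes). The lowest of the genes' highest group means is 1.22 FPKM, so genes low in every group have no row. Depth per library is an estimate from 19 to 40 low values each and not a deposited count.

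limma 3.58.1 (R 4.3.3) was fitted on log2(FPKM + 1) with 1 coefficient for each of the 12 groups (12 residual degrees of freedom), variance trend on and robust step off. The baseline contrast averages both control coefficients of each line and subtracts MDA-MB-231 from MDA-MB-468, two-sided, with Benjamini-Hochberg adjustment over all genes and a threshold of 0.05. The fit was tested on simulated data. Gene positions come from GENCODE 29 (13951 of 14114 genes matched by Ensembl ID) and promoters from RefSeq.

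Named were the 12 largest and 12 smallest log2 differences among genes called with at least 10 FPKM in the higher line and no overlap, up to 6 members of each of 30 lists with the largest difference, 33 single genes, the 4 largest interaction genes with at least 5 FPKM in some group, and further members where a sentence accounts for a list. The lists and members were chosen with earlier results of these data known, and genes of the chromosome stretches after their values were seen. Alternatives were the pseudocount, a filter on low values, the scaling, the variance settings, fewer libraries, the kind of control and the replicate block. Replicate numbers are not stated to pair libraries. Results for some genes are not reported here.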

Additional observations from a re-analysis of the deposited data

Results flagged for a closer look

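Within each line, the 4 control libraries were compared for each of 202 named genes, which makes 404 sets. Sets with 4 equal values, such as S100A9 at 0 in MDA-MB-231, are within the 404 but could not be tested. In 31 sets the highest or lowest library lay further from the others than Dixon's 95% value allows. Chance gives about 1 in 20 for sets without ties, but in 11 of the 31 the other 3 libraries were at 0, where any trace value passes, so the count is not set against chance. Of the 31, 10 fell on thalidomide replicate 1 of MDA-MB-231. In that library MKI67 was at 142.3 FPKM (67.9 to 79.4 in the other 3), CTGF at 73.7 (38.8 to 42.1), CYR61 at 156.7 (81.9 to 93.3) and NR2F2 at 47.3 (32.5 to 34.1). It was lowest for DKK1 at 194 FPKM (234 to 240), SDPR at 23.7 (28.4 to 28.8) and IGFBP3 at 25.1 (27.7 to 27.9), and it held traces of KRT5 (0.00752), KRT14 (0.0115) and DLL3 (0.0186). The part of any difference in cell handling or RNA in that library was not tested.

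Single libraries with a trace value, where the other 3 of their line were listed at 0, were MDA-MB-231 DMSO replicate 2 for RN7SL471P (0.131 FPKM) and WNT6 (0.0108), MDA-MB-231 DMSO replicate 1 for HOXC13 (0.00794), and MDA-MB-231 thalidomide replicate 2 for S100A7 (0.0427), KLK6 (0.0162) and FOXI1 (0.00909). The same held for MDA-MB-468 DMSO replicate 2 with SNAI2 (0.00735) and NRG1 (0.00866) and for MDA-MB-468 thalidomide replicate 1 with CST3 (0.00478).

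The other sets with a library apart had small gaps. In MDA-MB-468 DMSO replicate 2, HIST1H2BI was at 321 FPKM (365 to 371 in the others), ITGA6 at 47 (44.6 to 45), MET at 78.1 (73.3 to 73.8) and PDGFRB at 0.0187 (0.011 to 0.0113). In MDA-MB-468 DMSO replicate 1, FN1 was at 2.74 FPKM (3.23 to 3.29) and ALDH1L2 at 3.52 (3.68 to 3.7). In the thalidomide libraries of MDA-MB-468, replicate 2 had SLPI at 257 FPKM (271 to 272) and ERBB2 at 14.6 (11.6 to 11.7), and replicate 1 had HLA-DPA1 at 0.0186 (0.00907 to 0.00961) and U1 at 0.334 (0.218 to 0.231). In MDA-MB-231, IL11 was at 78.9 FPKM in thalidomide replicate 2 (64.6 to 67.1) and COL1A1 at 0.642 in DMSO replicate 1 (0.549 to 0.563).

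By limma's test of the interaction, the line difference changed with BETd-246 for TRIB1 (log2 -2.66), FOXI1 (-2.52), EGR1 (-2.5) and U1 (-2.46), each toward MDA-MB-231. EGR1 rose in both lines, from 6.95 to 29.2 FPKM in MDA-MB-468 and from 2.87 to 82.1 in MDA-MB-231. U1 rose in MDA-MB-231, from 6.12 to 39.3 FPKM. FOXI1 fell from 14.2 to 1.83 FPKM in MDA-MB-468 and was near 0 in MDA-MB-231 with and without BETd-246, where a fall could not be seen.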

How the results depend on the processing

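Leaving out each of the 8 control libraries in turn gave 11907 to 12256 genes that differed between the lines, and 3979 to 4057 at 2-fold or more. The other alternatives gave 10228 to 12277 and 2198 to 4976, and the lowest 2-fold count, 2198, came with a pseudocount of 5, which shrinks the folds of low genes by construction. The same pseudocount gave 2003 genes with BETi-211, 2130 with BETd-246 and 56 in the interaction with BETd-246, and a pseudocount of 0.1 gave 235 in that interaction, which ranged from 131 to 140 without single libraries. Thalidomide against DMSO in MDA-MB-468 gave 1 gene with a pseudocount of 0.1, 22 with 5 and 0 to 71 without single libraries. In MDA-MB-231 leaving out single libraries gave 0 to 3200 genes and in the interaction of line and control 0 to 1169, and for these counts beyond 0 the cause was not tested. The mitochondrial share differed by -5.08 to -3.68 percentage points without single libraries (exact permutation p = 0.0286 or 0.0571), by -4.25 in DMSO libraries and by -4.39 in thalidomide libraries (exact permutation p = 0.333 for each, the smallest that 2 against 2 can give).

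Of 4238 values of the named genes under alternatives, 4229 stayed on their side of the threshold, 5 lost the call and 4 gained a call. No difference called in the main fit or in the alternative changed direction, and direction was not compared where neither was called. The genes that lost or gained a call were BRAF, MAGEC2, CD14 and LUM. Of 210 list medians under alternatives, 6 changed sign, all near 0, and 153 moved without a change of sign by more than the median standard error of the members, 28 of 30 with quantile normalization. Those that changed sign went, for nuclear hormone receptors, to -0.01 with median-of-ratios scaling and -0.02 with equal sums without mitochondrial genes, for TGF-beta and BMP signalling to -0.08 with quantile normalization, and for redox and xenobiotic enzymes to -0.02, -0.14 and -0.04 with those 3 in turn (median-of-ratios, quantile, equal sums). The share of calls higher in MDA-MB-468 was 55.5% as deposited, 50.4% with median-of-ratios scaling, 47.4% with quantile normalization, 52.6% with upper-quartile scaling and 49.6% with equal sums. Chosen after seeing the data, list counts without the library that stood apart were the same in 54 of 60 and changed by 1 in the other 6, and under the 4 scalings they changed by at most 5.

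Replicate numbers were not found to pair the libraries: deviations of replicate 1 correlated at 0.33 and 0.13 within the lines and at -0.28 to -0.11 between them. With a replicate block, 12185 genes differed, 4007 at 2-fold, and the counts were 3851 with BETi-211, 4056 with BETd-246 and 134 in the interaction, so the block changed no count by over 1.5 times. Depth is an estimate, and values below about 0.1 FPKM rest on few fragments.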

Other observations

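Further neighbouring genes moved together, as a description of positions noticed after the values were seen. On chromosome 1, 13 genes in a row from CAP1 to CITED4 (chr1:40040233-40862366) were at least 2-fold higher in MDA-MB-468, with a median log2 difference of 1.63. Other runs toward MDA-MB-468 were 9 genes from C16orf87 to N4BP1 (chr16:46796607-48620148), 8 genes at the type II keratin cluster from KRT81 to KRT18 (chr12:52285913-52952901) and 7 genes from KRT23 to KRT17 (chr17:40922696-41624842), at the type I keratin cluster. On the X chromosome, 8 genes from GABRA3 to NSDHL (chrX:152166234-152869729) were higher in MDA-MB-468 with a median of 4.41. Of the 27 runs of at least 6 genes, 2 were higher in MDA-MB-231, the block from HMOX2 to UBN1 and 7 genes from CST3 to ACSS1 (chr20:23626706-25058980), which has a median of -3.02. Copy number and methylation were not measured, and their part was not tested.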
